A study of Mus musculus with 9 samples.

Results

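The matrix metalloproteinases (MMPs) and their inhibitors (TIMPs) that mouse bone marrow (BM)-derived macrophages (Mϕs) expressed were described across 3 culture conditions. The rows of the deposited table that map to 7 metalloproteinase genes (Mmp8, Mmp9, Mmp12, Mmp13, Mmp14, Mmp19 and Mmp27) and to 3 inhibitor genes (Timp1, Timp2 and Timp3) were taken by symbol, 10 genes of 53379. All 10 passed the filter on low values, a mean of at least 0.5 FPKM over the 9 libraries, and each also had a mean above 0.5 FPKM in every group. FPKM are fragments per kilobase of exon, scaled to the size of the library, so that levels of different genes can be compared. Another 17 MMP and TIMP genes of the table are given below as the rest of the family.

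MMPs are zinc-dependent endopeptidases that cut collagens, elastin, fibronectin and other matrix proteins, and also shed or trim chemokines and surface receptors. Most are secreted as inactive proenzymes, some are anchored in the plasma membrane, and TIMPs block the active site of the mature enzymes. Mϕs release several of them during tissue repair, inflammation and tumor growth, and what is measured here is transcript, not enzyme or its activity.

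Cells were from wild-type C57BL/6 mice, with no transgene or deletion in any group. BM cells of 3 mice were kept for 3 days in 10 ng/ml of M-CSF (CSF-1), the cytokine that drives Mϕ differentiation. They then spent 4 days in the same M-CSF alone (Control, n = 3), with 10 ng/ml IL-4 added (n = 3) or with 100 ng/ml IL-6 added (n = 3). The 2 cytokine concentrations differ, so IL-6 against IL-4 compares these treatments and not equal doses, and the values here follow the labels. The methods give another IL-4 dose, and the figure legends other doses of both cytokines and a shorter treatment. Age and sex of the mice are not given in the sources used here. The libraries are numbered #1 to #3 in each group, and the headers of the table give the same numbers as m1 to m3. The letter m was read as mouse, and the numbers as the same 3 mice in every group, which no label or header states. Where the mouse is used as a block below, it stands for this number.

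The 9 libraries held 29988160 to 39909571 fragments. The 8 Mϕ markers, Adgre1, Csf1r, Cd68, Itgam, Mertk, Fcgr1, Cd14 and Lyz2, were all above the filter, with a summed level of 16662 to 18966 FPKM in Control, 6021 to 7062 in IL-4 and 20369 to 21461 in IL-6 libraries, most of it from Lyz2. By the threshold given below, 5 of the 8 were called lower with IL-4 and 1 (Cd14) higher with IL-6. Of all genes tested, 8.89% were called lower with IL-4 and 3.49% higher with IL-6. Short of that threshold, Cd68 had a log2 difference of −0.83 for IL-4 (limma adjusted p = 0.00332) and −0.66 for IL-6 (0.0231). Mertk stood at −1.59 for IL-4 (limma adjusted p = 0.0692). Itgam went the other way, at 0.71 for IL-4 (limma adjusted p = 0.0701) and 0.91 for IL-6 (0.0608). Some libraries stand apart. A list of Paneth and goblet cell genes without Lyz1, genes of intestine and not of BM, reached a sum of 38.4 to 57.6 FPKM in IL-4 #1 and the 3 Control libraries, but of 0.0139 to 0.175 in the remaining 5. A list of 12 skeletal muscle genes went the other way, with sums of 3.13 to 6.61 FPKM in the first 4 libraries and 9.44 to 16.2 in the remaining 5, and Myh1 had 0 fragments in the first and 60 to 106 in each of the latter. The Control libraries all carry the intestinal transcripts and the IL-6 libraries nearly lack them, so that this division and the comparison of IL-6 with Control cannot be told apart. A model with the division as an added term (the set term) was therefore run as well, and for IL-6 its value depends on how IL-4 #1 differs from the other two IL-4 libraries. IL-4 #3 differed from IL-4 #1 and #2 far more (chi-square per degree of freedom 536 and 397) than these did from each other (29.9), and its values are pointed out below where they differ.

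The family changed in composition with both cytokines. Against Control, 8 of the 10 genes passed the threshold with IL-4, 4 higher (Mmp12, Mmp13, Mmp19 and Timp1) and 4 lower (Mmp8, Mmp9, Mmp14 and Mmp27). With IL-6 4 passed, of which Mmp8, Mmp14 and Timp1 were higher and Mmp12 was lower. Between IL-6 and IL-4 directly 8 passed, 5 higher with IL-6 (Mmp8, Mmp9, Mmp14, Mmp27 and Timp3) and 3 lower (Mmp12, Mmp13 and Mmp19). The threshold was an adjusted p under 0.05 from limma, a linear model fitted over all 12824 genes tested, together with a change of 1 or more in either direction on the log2(FPKM + 0.1) scale. Among all genes tested it called 13.9% between IL-4 and Control (5.02% higher, 8.89% lower), 5.38% between IL-6 and Control (3.49% higher, 1.89% lower) and 20.4% between IL-6 and IL-4 (13.6% higher with IL-6, 6.82% lower). The libraries of the 2 groups compared did not overlap for 8 of the 10 genes in each comparison, where the share of all genes was 40.3%, 43.2% and 56.9%. The 10 genes were chosen with earlier results of these data known, so the shares stand beside the counts and are no test of the family. IL-4 and IL-6 share the Control libraries, so their values against Control are set side by side only. Under the set term, 5 genes passed for IL-4 (Mmp12, Mmp13 and Mmp19 higher, Mmp9 and Mmp14 lower), 2 for IL-6 (Mmp14 higher and Mmp12 lower) and 8 between IL-6 and IL-4. Without IL-6 #2, and also without IL-6 #3, 2 genes passed for IL-6 against Control. An exact permutation test of 3 libraries against 3 cannot go below p = 0.1, the value of every comparison without overlap.

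**Figure D1:**
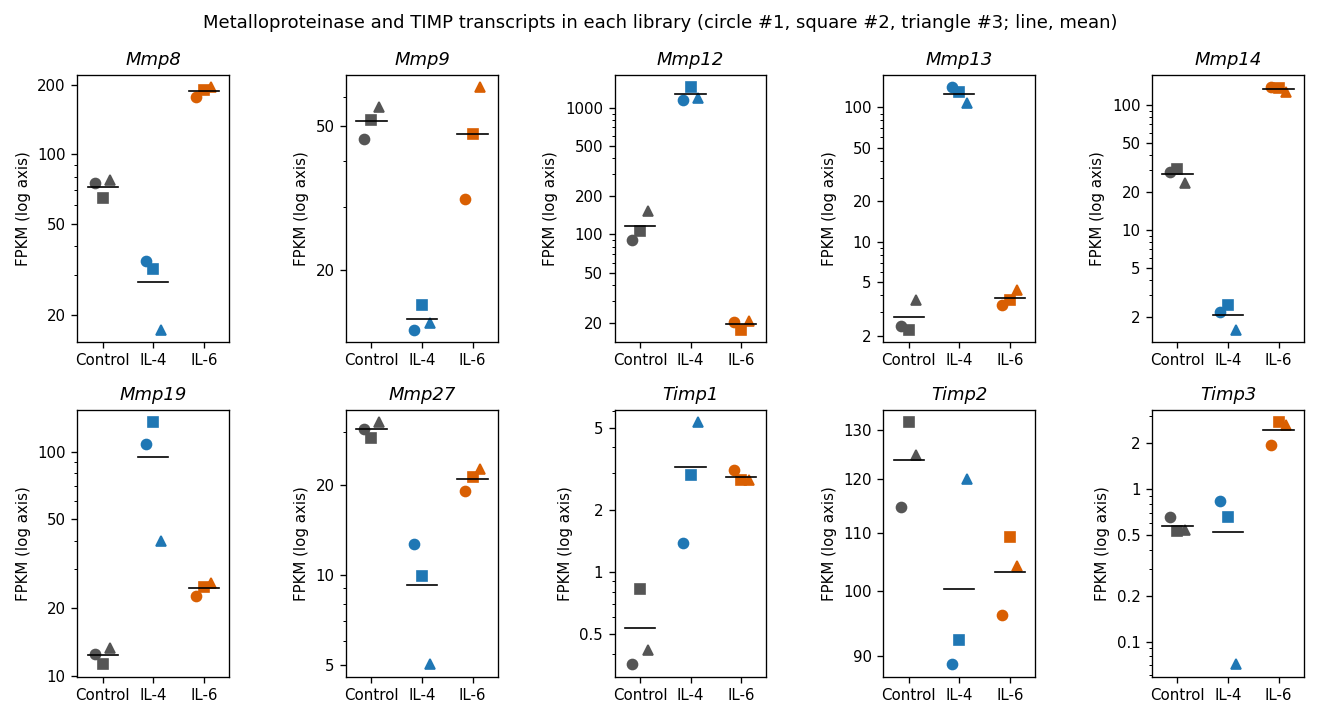
FPKM on a log axis of each of the 10 genes in each library, by group (circle, square and triangle are libraries #1, #2 and #3, and the line is the mean of 3). Mmp12, Mmp13 and Mmp19 are highest in the IL-4 libraries, Mmp8 and Mmp14 in the IL-6 libraries, and IL-4 #3 lies away from IL-4 #1 and #2 for Mmp8, Mmp19, Mmp27, Timp2 and Timp3.

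**Figure D2:**
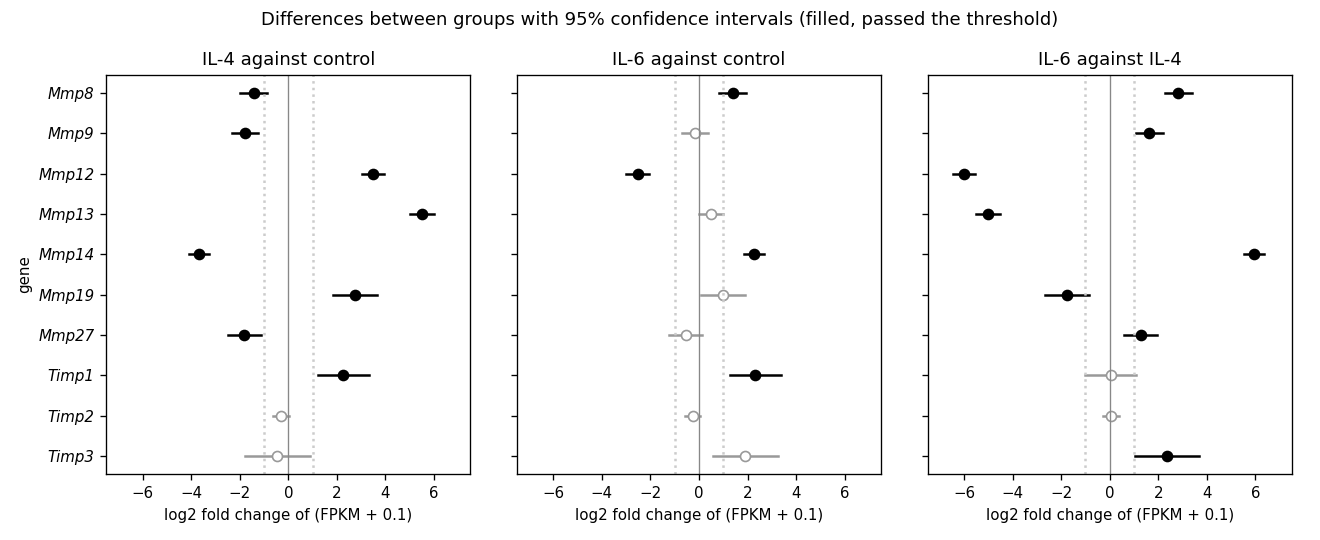
Log2 fold change of FPKM + 0.1 with its 95% confidence interval for each gene in the 3 comparisons, with filled points for genes past the threshold and dotted lines at a log2 fold change of 1 in either direction. Mmp12, Mmp8 and Mmp14 pass in all 3 comparisons, and in each case the IL-4 and the IL-6 difference from Control point in opposite directions.

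The 4 genes with the widest separation between the cytokines, Mmp12, Mmp13, Mmp14 and Mmp8, were looked at in sequence. Shown are the 250 bases before the start of transcription that RefSeq gives on GRCm38.p6, 5′ to 3′ on the strand of the gene, in lower case. Capitals mark the match to a searched motif, and a window with no capitals holds none.
Mmp12 (chr9:7344147-7344396, plus strand): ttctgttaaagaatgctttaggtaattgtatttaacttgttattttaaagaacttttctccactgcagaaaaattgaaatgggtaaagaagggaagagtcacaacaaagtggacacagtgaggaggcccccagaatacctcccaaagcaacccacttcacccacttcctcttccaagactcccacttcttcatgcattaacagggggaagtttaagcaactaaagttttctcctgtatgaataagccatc
Mmp13 (chr9:7272264-7272513, plus strand): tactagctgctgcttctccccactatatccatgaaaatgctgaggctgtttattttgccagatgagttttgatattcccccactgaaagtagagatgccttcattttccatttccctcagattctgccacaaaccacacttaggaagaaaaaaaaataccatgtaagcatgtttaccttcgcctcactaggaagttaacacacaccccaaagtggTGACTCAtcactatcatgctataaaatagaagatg
Mmp14 (chr14:54431348-54431597, plus strand): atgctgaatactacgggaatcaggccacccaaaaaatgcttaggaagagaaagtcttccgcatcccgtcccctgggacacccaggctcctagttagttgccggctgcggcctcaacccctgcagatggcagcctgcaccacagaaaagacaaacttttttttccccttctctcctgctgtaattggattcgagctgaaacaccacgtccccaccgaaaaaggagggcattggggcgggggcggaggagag
Mmp8 (chr9:7558179-7558428, plus strand): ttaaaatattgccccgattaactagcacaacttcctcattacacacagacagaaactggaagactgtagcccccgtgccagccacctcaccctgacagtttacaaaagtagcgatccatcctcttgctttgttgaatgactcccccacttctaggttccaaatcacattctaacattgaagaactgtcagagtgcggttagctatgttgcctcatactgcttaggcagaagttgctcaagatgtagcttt
Both strands were searched for TTCNNNGAA, the spaced palindrome that STAT factors are known to bind, for the same half-sites with a spacer of 4 bases, which STAT6 is known to prefer, and for TGANTCA, the AP-1 element. Of all 32851 promoter windows of that length, 7.02% hold TTCNNNGAA, 5.85% the form with 4 spacer bases and 6.75% TGANTCA. The Mmp13 window holds TGACTCA, whose distance to the start is 35 bases. The windows of Mmp12, Mmp14 and Mmp8 hold none of the 3, nor do those of Mmp27, Timp1, Timp2 and Timp3, and Mmp9 and Mmp19 had no entry. A match is a description of letters and not a site in use. The last 16 bases of the Mmp12 window lie inside the first exon of the GENCODE M21 annotation, which starts that gene earlier. The last 40 bases of the Timp3 window also lie past its M21 start. For Timp2 the RefSeq start is 329 bases past the M21 start, so its whole window lies inside the annotated gene. The bases before the M21 start of Timp2 were not searched.

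Mmp12 encodes the Mϕ metalloelastase, which degrades elastin. It lies at chr9:7344381-7369499 on the plus strand of GRCm38 in GENCODE M21, with 11 exon blocks. Its level was 90.6, 106 and 152 FPKM in Control #1 to #3, 1164, 1463 and 1205 in IL-4 #1 to #3, and 20.3, 17.7 and 20.7 in IL-6 #1 to #3. The 3 groups lay apart without overlap, with IL-4 far above and IL-6 far below Control. In IL-4-treated Mϕs it was 11-fold higher than in Control (mean 1277 ± 162 against 116 ± 32 FPKM, SD, n = 3), the 27th highest of all genes in that group. This was a log2 fold change of 3.48 (standard error 0.198, limma adjusted p = 1.42e-05). In IL-6-treated Mϕs it was 16.8% of Control at 19.6 ± 1.63 FPKM, with a log2 fold change of −2.53 (standard error 0.198, limma adjusted p = 0.000267). Between IL-6 and IL-4 the log2 difference was −6.02 (limma adjusted p = 8.73e-07). Within one set of libraries, IL-4 #1 was 10-fold the Control mean, and within the other the mean of IL-4 #2 and #3 was 68.1-fold that of IL-6. Each of these calls held in all 21 alternatives.

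Mmp13, the gene next to Mmp12 (chr9:7272514-7283331, plus strand, 10 exon blocks), encodes collagenase 3, which cleaves fibrillar collagen. It measured 2.35, 2.22 and 3.71 FPKM in the Control libraries, 142, 129 and 107 in the IL-4 libraries, and 3.38, 3.68 and 4.35 in the IL-6 libraries. IL-4 libraries were far above both other groups, while Control and IL-6 libraries overlapped. The mean was 45.7-fold higher with IL-4 than in Control, a log2 fold change of 5.49 (standard error 0.214, limma adjusted p = 2.69e-06). For IL-6 a log2 fold change of 0.48 was measured with a 95% interval of −0.01 to 0.97 (limma adjusted p = 0.25). Against IL-4, IL-6 had a log2 difference of −5.01 (limma adjusted p = 2.13e-06). IL-4 #1, of the same set as the Control libraries, was 51.5-fold the Control mean.

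MMPs are expressed by osteoclasts too, which share a myeloid precursor with Mϕs. Of the MMPs described here, Mmp12, Mmp13 and Mmp19 were called higher with IL-4, and Mmp8, Mmp9, Mmp14 and Mmp27 lower. Of the 8 osteoclast genes listed, 6 were tested. IL-4 was higher than Control for 5 of them, among them Ocstamp with a log2 fold change of 6.80 (limma adjusted p = 4.22e-06), Dcstamp with 5.12 (3.04e-06) and Ctsk with 4.94 (7.19e-06), while Nfatc1 was lower (log2 fold change −1.29). Of all genes tested 5.02% were called higher and 8.89% lower with IL-4. With means of 0.0599 FPKM in Control and 0.022 in IL-6, Ocstamp passed the filter only through its IL-4 libraries. For that gene the filter itself favored a higher value with IL-4. Calcr and Oscar stayed under 0.1 FPKM in every library. The list summed to 176 to 232 FPKM in Control, 927 to 1098 in IL-4 and 80.5 to 96.5 in IL-6 libraries. In Control and IL-4 most of it came from Atp6v0d2 (means 170 and 580 FPKM), which was at 43.1 with IL-6. With IL-6 2 of the 6 were called lower than Control, Atp6v0d2 (log2 fold change −1.98) and Dcstamp (−1.54), where 1.89% of all genes were. The others, not called, were at −0.39 (Ocstamp), 0.82 (Acp5), 0.10 (Ctsk) and 0.03 (Nfatc1). The part of osteoclast-like cells in the levels of any of these MMPs was not tested. In RNA from whole cultures, fewer or more cells of a type cannot be told apart from less or more RNA per cell.

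Mmp8, the collagenase first known from neutrophils, moved the other way. It lies in the same stretch of chromosome 9 (chr9:7558456-7568485, plus strand, 10 exon blocks). Control #1 to #3 held 75.2, 64.7 and 77.3 FPKM, IL-4 #1 to #3 held 34.5, 31.7 and 17.3, and IL-6 #1 to #3 held 177, 191 and 197. No library of one group reached the range of another. Relative to Control the mean was 38.5% with IL-4 and 2.6-fold higher with IL-6, where Mmp8 had the highest level of the 10 genes (188 ± 9.91 FPKM, SD, n = 3). The IL-4 change was −1.43 on the log2 scale (standard error 0.243, limma adjusted p = 0.0038) and the IL-6 change 1.38 (standard error 0.243, limma adjusted p = 0.0112). IL-6 was above IL-4 by 2.81 on the log2 scale (limma adjusted p = 7.74e-05). Under the set term the IL-4 value was −1.06 (adjusted p = 0.0732) and the IL-6 value 1.94 (adjusted p = 0.0682). The IL-6 call was also lost without Control #2 (log2 fold change 1.30, adjusted p = 0.0548), IL-6 #2 (1.37, 0.0525) or IL-6 #3 (1.35, 0.0554).

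Mmp9 encodes gelatinase B, which digests denatured collagen and basement membrane, and is stored in neutrophil granules as well as made by Mϕs (chr2:164940780-164955850, plus strand, 15 exon blocks). Its level was 46.1, 52.1 and 56.6 FPKM in Control, 13.7, 16.1 and 14.3 in IL-4 and 31.5, 47.5 and 64.2 in IL-6 libraries. IL-4 libraries lay below all others, and the IL-6 libraries, the most spread of the 3 groups, covered the range of Control. With IL-4 the mean was 28.5% of Control and the log2 fold change −1.80 (standard error 0.237, limma adjusted p = 0.00103). The IL-6 log2 fold change was −0.17, with a 95% interval of −0.71 to 0.38 (limma adjusted p = 0.743), and it was 0.10 without IL-6 #1. IL-6 was above IL-4 by 1.63 on the log2 scale (limma adjusted p = 0.00125).

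Neutrophils and their precursors are a known source of both Mmp8 and Mmp9. The 11 neutrophil and precursor genes listed (Elane, Mpo, Prtn3, Ctsg, Camp, Ltf, Ngp, Cd177, Ly6g, Retnlg and Csf3r) were all above the filter, and none was at 0. They summed to 1262, 2102 and 1900 FPKM in Control, 593, 465 and 513 in IL-4 and 1745, 2314 and 2475 in IL-6 libraries. IL-4 was lower than Control for 9 of the 11, among them Elane (log2 fold change −2.69), Camp (−2.61) and Prtn3 (−2.38), where 8.89% of all genes tested were called lower. Between IL-6 and Control none of the 11 passed the threshold in limma, where 5.38% of all genes did. The mean of the summed level with IL-4 was 0.299 of Control, beside ratios of 0.385 for Mmp8 and 0.285 for Mmp9. With IL-6 that ratio was 1.24, beside 2.6 for Mmp8 and 0.925 for Mmp9. Most of the sum came from Ngp, Ltf and Retnlg, and single genes differed in their ratio of IL-6 to Control, from 0.535 for Retnlg to 2.07 for Prtn3. The part of these cells in the levels of Mmp8 and Mmp9 was not tested.

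**Figure D3:**
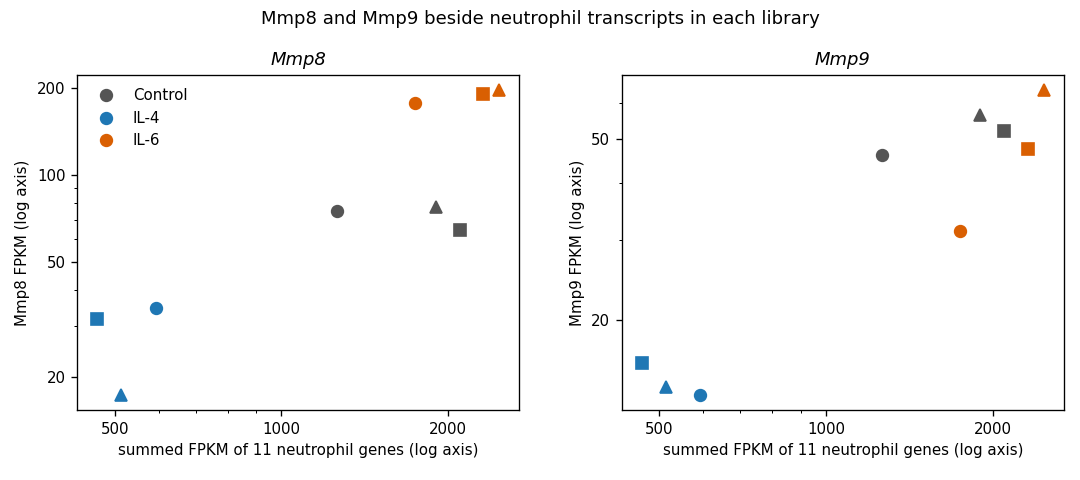
FPKM of Mmp8 (left) and Mmp9 (right) against the summed FPKM of the 11 neutrophil and precursor genes, both on log axes, 1 point for each library (circle #1, square #2, triangle #3). All 3 IL-4 libraries lie low on both axes, and the IL-6 libraries lie above the Control libraries for Mmp8 but not for Mmp9.

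Mmp14 encodes the membrane-anchored MT1-MMP, which cuts collagen at the cell surface and activates the Mmp2 proenzyme (chr14:54431612-54445364, plus strand, 11 exon blocks). In Control #1 to #3 it measured 29.0, 30.7 and 23.8 FPKM, in IL-4 #1 to #3 2.2, 2.5 and 1.59, and in IL-6 #1 to #3 139, 136 and 127. The groups were far apart, in the reverse order of Mmp12. Its mean with IL-4 was 7.54% of Control (log2 fold change −3.68, standard error 0.175, limma adjusted p = 6.06e-06). In IL-6 libraries it stood 4.83-fold higher than in Control (2.27, standard error 0.175, limma adjusted p = 0.000241). IL-6 was 64-fold above IL-4 (log2 difference 5.96, limma adjusted p = 6.39e-07). Both calls against Control held in all 21 alternatives, and IL-4 #1 alone, in the set of the Control libraries, was at 0.0792 of the Control mean. Over the 9 libraries the log2 levels of Mmp14 and Mmp12 had a Pearson r of −0.99 and those of Mmp14 and Mmp8 of 0.97, where the points share their group and library.

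Mmp2, the gelatinase that Mmp14 activates, is not among the 10 genes but was measurable. It held 1.14, 0.900 and 0.846 FPKM in Control, 0.0608, 0.147 and 0.0818 in IL-4 and 2.31, 1.90 and 2.34 in IL-6 libraries, on 7 to 272 fragments. The order of the groups was that of Mmp14 at a far lower level. IL-4 was lower than Control by a log2 fold change of −2.45 (limma adjusted p = 0.000254) and IL-6 higher by 1.11 (limma adjusted p = 0.0307). The IL-6 call was lost with the mouse number as a block (adjusted p = 0.0701), under the set term (0.71, adjusted p = 0.317), with other pseudocounts, with quantile normalization and without any one Control or IL-6 library (adjusted p from 0.0577 to 0.137). The IL-4 value with a pseudocount of 1 was −0.84, below the fold threshold.

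Mmp19, an enzyme that cuts basement membrane components, rose with IL-4 (chr10:128790910-128800824, plus strand, 9 exon blocks). Its level was 12.5, 11.2 and 13.3 FPKM in Control, 108, 136 and 39.9 in IL-4 and 22.7, 25.0 and 25.9 in IL-6 libraries. The groups did not overlap, although IL-4 #3 was well below the other two IL-4 libraries. With IL-4 the mean was 7.67-fold higher (log2 fold change 2.76, standard error 0.394, limma adjusted p = 0.00159). With IL-6 it was 1.99-fold that of Control, a log2 fold change of 0.99 with a 95% interval of 0.08 to 1.89 (limma adjusted p = 0.197). Without IL-4 #3 the IL-6 value was still 0.99, with a standard error of 0.111 and an adjusted p of 0.000762, just under the fold threshold. IL-6 was below IL-4 by a log2 difference of −1.77 (limma adjusted p = 0.01). Of the exonic bases of Mmp19, 789 (22.3%) overlap the gene Tmem198b on the opposite strand, itself at 1.32 to 4.38 FPKM, and whether strand was used in counting is not given in the sources used here.

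Mmp27, a less studied stromelysin-like enzyme, adjoins Mmp8 (chr9:7571396-7581885, plus strand, 9 exon blocks). Control libraries held 30.8, 28.7 and 32.5 FPKM, IL-4 libraries 12.7, 9.91 and 5.01, and IL-6 libraries 19.1, 21.2 and 22.6. IL-6 libraries lay between the other two groups, without overlap. On the log2 scale IL-4 differed from Control by −1.82 (standard error 0.297, limma adjusted p = 0.00313) and IL-6 by −0.55 (95% interval −1.23 to 0.13, limma adjusted p = 0.352). IL-6 was above IL-4 by 1.28 (limma adjusted p = 0.0122). Under the set term the IL-4 value was −1.26 (adjusted p = 0.0553) and the IL-6 value turned to 0.29 (adjusted p = 0.637). Without IL-4 #3 IL-6 exceeded IL-4 by 0.89, below the fold threshold.

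Mmp13, Mmp12, Mmp8 and Mmp27 belong to a cluster of 10 MMP genes that follow each other on chr9:7272514-7699585, in the order Mmp13, Mmp12, Mmp1b, Mmp3, Mmp1a, Mmp10, Mmp8, Mmp27, Mmp20 and Mmp7. The 4 were the only genes of the cluster above the filter. Mmp12 and Mmp13, at one end, were higher with IL-4, and Mmp8 and Mmp27, farther along, were lower. The 4 genes between these pairs were nearly silent, with group means of at most 0.167 FPKM. Mmp3 had 27 fragments in Control #2, 2 in IL-6 #1 and 0 in the other 7 libraries, and Mmp10 had 2 to 13 fragments in each library. Mmp20 was at 0 in all 9 libraries, which with a floor of 3 fragments says only that it was not detectable at this depth. Mmp7, also made by Paneth cells, had 12, 16 and 14 fragments in Control #1 to #3 and 5 in IL-4 #1, but at most 1 in the other 5 libraries, the same division as the intestinal genes.

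**Figure D4:**
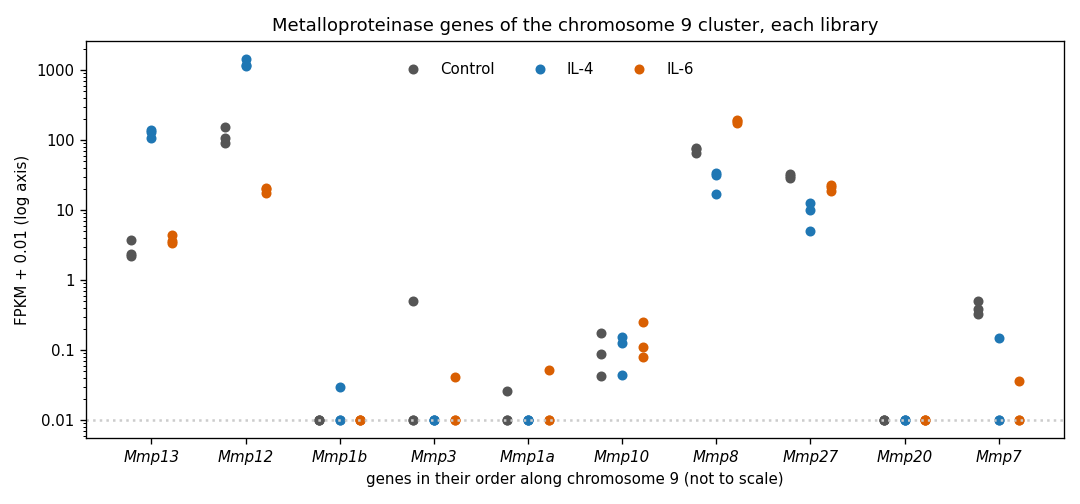
FPKM + 0.01 on a log axis for the 10 MMP genes of the chromosome 9 cluster, in their order along the chromosome (not to scale), 1 point for each library, with the dotted line at 0 FPKM. Mmp13 and Mmp12 are highest with IL-4, Mmp8 and Mmp27 lowest with IL-4, and the 6 other genes stay at or below about 0.5 FPKM.

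Among the inhibitors, Timp2 had by far the highest level. TIMP-2 blocks most MMPs and also bridges the Mmp2 proenzyme to Mmp14 (chr11:118301069-118355740, minus strand, 6 exon blocks). It measured 115, 132 and 125 FPKM in Control, 88.8, 92.4 and 120 in IL-4 and 96.2, 109 and 104 in IL-6 libraries. Timp2 made up 95 to 99.2% of the summed TIMP level in every library, with means that differed little between groups. Its log2 fold change was −0.31 with IL-4 (95% interval −0.63 to 0.01, limma adjusted p = 0.148) and −0.26 with IL-6 (95% interval −0.58 to 0.06, limma adjusted p = 0.351). IL-6 and IL-4 differed by 0.05 (95% interval −0.27 to 0.37). These intervals leave out a change as large as the fold threshold.

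Timp1, the inhibitor best known as inducible, was low (chrX:20870166-20874735, plus strand, 6 exon blocks). Control libraries held 0.355, 0.826 and 0.417 FPKM, IL-4 libraries 1.38, 2.94 and 5.33, and IL-6 libraries 3.10, 2.79 and 2.79, on 11 to 189 fragments. Every cytokine-treated library was above every Control library, and IL-4 libraries were spread more widely than IL-6 libraries. The mean was 6.04-fold that of Control with IL-4 (log2 fold change 2.27, standard error 0.459, limma adjusted p = 0.00859). IL-4 #3 had the highest of the IL-4 values, while IL-4 #1, of the same set as the Control libraries, was 2.6-fold the Control mean. IL-6 gave a mean 5.43 times that of Control (2.31, standard error 0.459, limma adjusted p = 0.0191). Between the cytokines the log2 difference was 0.04, with a wide 95% interval of −1.01 to 1.10. The set term brought these values to 1.30 with IL-4 (adjusted p = 0.132) and 0.86 with IL-6 (adjusted p = 0.354). The IL-6 call was also lost in limma voom on the recovered fragments (2.52, adjusted p = 0.0513) and without Control #1, Control #3 or any one IL-6 library (2.11 to 2.34, adjusted p from 0.0702 to 0.085).

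Timp3, the inhibitor that binds to the matrix and also blocks ADAM17, was low as well (chr10:86300372-86349506, plus strand, 8 exon blocks). It measured 0.654, 0.528 and 0.542 FPKM in Control, 0.833, 0.656 and 0.0708 in IL-4 and 1.96, 2.77 and 2.65 in IL-6 libraries, on 23 to 737 fragments. All IL-6 libraries were above all others, and IL-4 #3 was far below the rest. With IL-6 the mean was 4.28-fold that of Control, but the log2 fold change of 1.91 (95% interval 0.59 to 3.24) missed the threshold (limma adjusted p = 0.0903). Without IL-4 #3, whose low value widens the shared spread, the same 1.91 passed (standard error 0.19, adjusted p = 0.000437), and it passed too in the fit of IL-6 and Control libraries alone (adjusted p = 0.001), with a pseudocount of 1 (1.13, adjusted p = 0.0104) and after quantile normalization (1.88, adjusted p = 0.0064). The IL-4 value of −0.45 (limma adjusted p = 0.606) was 0.32 without IL-4 #3. IL-6 was above IL-4 by 2.36 (limma adjusted p = 0.0151), a call lost without IL-6 #2 (adjusted p = 0.0547) or IL-6 #3 (0.0529). In the annotation 1733 exonic bases of Timp3 (21.3%) overlap Syn3 on the opposite strand, which was at 0.00408 to 0.0823 FPKM.

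Fibroblasts are a known source of Timp1, Timp3, Mmp14 and Mmp2. The 8 fibroblast and stroma genes listed summed to at most 1.39 FPKM in any library (0.458 to 0.974 in Control, 0.829 to 1.39 in IL-4 and 0.737 to 0.923 in IL-6), none passed the filter, and Col3a1, Dcn, Lum and Pdgfra were under 0.1 FPKM throughout. The part of such cells in the levels of Timp1, Timp3, Mmp14 and Mmp2 was not tested.

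In levels, the order of the 10 genes differed between the groups. Control Mϕs had Timp2 (124 FPKM) and Mmp12 (116) on top, whose libraries overlapped, followed by Mmp8 (72.4), Mmp9 (51.6), Mmp27 (30.7), Mmp14 (27.8), Mmp19 (12.3), Mmp13 (2.76), Timp3 (0.575) and Timp1 (0.533). Of these neighbors, Mmp27 and Mmp14 overlapped, as did Timp3 and Timp1. In IL-4-treated Mϕs Mmp12 (1277 FPKM) stood alone at the top, followed by Mmp13 (126), Timp2 (100) and Mmp19 (94.7), whose libraries overlapped from neighbor to neighbor, then Mmp8 (27.8) and Mmp9 (14.7). Mmp27 (9.21), Timp1 (3.22) and Mmp14 (2.10) overlapped likewise above Timp3 (0.520). IL-6-treated Mϕs had Mmp8 (188 FPKM) first and Mmp14 (134) second, followed by Timp2 (103), Mmp9 (47.7), Mmp19 (24.5), Mmp27 (21.0), Mmp12 (19.6), Mmp13 (3.80), Timp1 (2.89) and Timp3 (2.46). There only Mmp27 and Mmp12 overlapped.

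Summed over the 7 metalloproteinases, the level was 286 to 359 FPKM in Control, 1390 to 1789 in IL-4 and 414 to 462 in IL-6 libraries, without overlap. Mmp12 alone made up 31.6 to 42.3% of that sum in Control, 78.8 to 86.7% in IL-4 and 4.01 to 4.91% in IL-6 libraries. Of the mean sum with IL-6, 42.9% came from Mmp8 and 30.6% from Mmp14, compared with 1.79% and 0.135% with IL-4. The summed TIMP level was 116 to 133 FPKM in Control, 91 to 125 in IL-4 and 101 to 115 in IL-6 libraries. The MMP sum thus exceeded the TIMP sum 2.52 ± 0.322 times in Control, 15.3 ± 3.83 times in IL-4 and 4.05 ± 0.183 times in IL-6 libraries (SD, n = 3), a ratio of transcript levels and not of proteins.

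**Figure D5:**
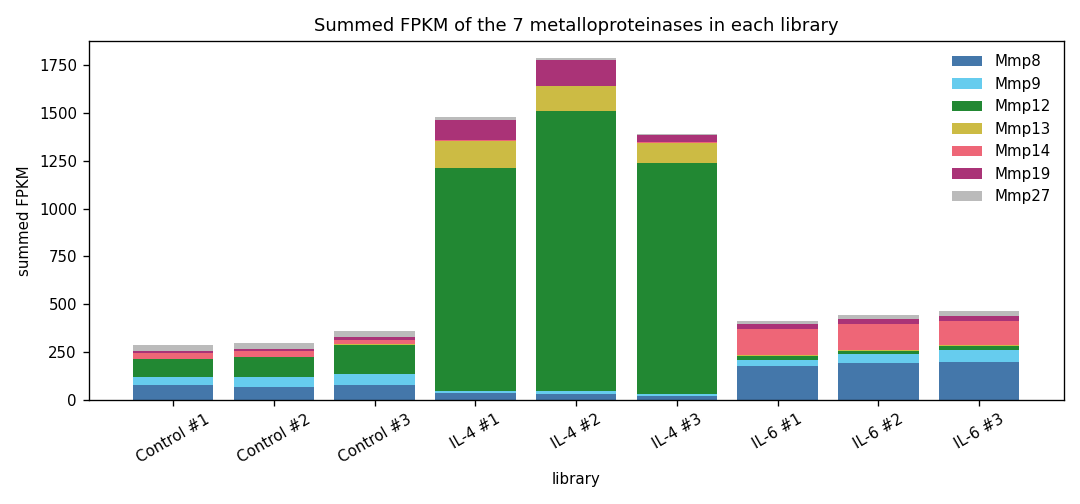
Summed FPKM of the 7 metalloproteinases in each of the 9 libraries, as stacked bars on a linear axis that starts at 0, colored by gene. Mmp12 fills most of the 3 IL-4 bars (1390 to 1789 FPKM in all), and Mmp8 and Mmp14 most of the 3 IL-6 bars (414 to 462 FPKM).

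Of the other 17 MMP and TIMP genes, Timp4 included, 2 passed the filter, Mmp2 and Mmp25. Mmp25, the GPI-anchored MT6-MMP known from leukocytes, held 3.26, 2.84 and 4.07 FPKM in Control, 1.26, 1.27 and 0.349 in IL-4 and 2.08, 2.76 and 3.17 in IL-6 libraries. It was lower with IL-4 (log2 fold change −1.87, limma adjusted p = 0.0139), a call lost under the set term (−1.35, adjusted p = 0.205), in the fit of the 2 groups alone (adjusted p = 0.0515) and without Control #3 (adjusted p = 0.0568). The value for IL-6 was −0.34 (95% interval −1.31 to 0.64, limma adjusted p = 0.71).

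Genes that activate, bind or restrain MMPs were given as a list of 23, of which 11 were tested. Against Control 4 passed with IL-4 and 3 with IL-6, and the median log2 fold change of the 11 was −0.15 with IL-4 and 0.42 with IL-6. Over all genes tested these medians were −0.20 and 0.00, and the shares past the threshold 13.9% and 5.38%. Thbs1, the matricellular protein thrombospondin 1, which binds MMPs and TGF-β, had the highest mean of the list in IL-6 libraries. It held 206, 111 and 128 FPKM in Control, 34.8, 39.7 and 10.9 in IL-4 and 1032, 940 and 1048 in IL-6 libraries. Its log2 fold change was −2.53 with IL-4 (limma adjusted p = 0.00555) and 2.81 with IL-6 (limma adjusted p = 0.0087), the direction of Mmp14 in both, though under the set term neither call remained (adjusted p = 0.0966 and 0.099). The urokinase pathway generates plasmin, which activates several proenzymes. Its receptor Plaur was higher with IL-4 (1.55, limma adjusted p = 0.000262), and the protease Plau was lower with IL-6 (−1.94, limma adjusted p = 0.0157, lost under the set term at 0.308 and without Control #2, Control #3 or any one IL-6 library at 0.052 to 0.0735). Lcn2, which forms a complex with Mmp9, was lower with IL-4 as Mmp9 was (−1.54, limma adjusted p = 0.00264), and with IL-6 it had a value of 0.64 (limma adjusted p = 0.175). The fifth gene that passed, named after its values were seen, was the protease inhibitor Serpine2, lower with IL-4 (−1.01, limma adjusted p = 0.014) and higher with IL-6 (1.06, limma adjusted p = 0.0275). Both calls of Serpine2 were lost under the set term (adjusted p = 0.137 and 0.232) and with a pseudocount of 1 (−0.46 and 0.66).

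For each of the 10 genes, the tested genes whose log2 levels were most like it over the 9 libraries were looked up, as a description of points that share groups and libraries. The highest r for Mmp12 was with Qpct (0.9971), whose means were 2.56, 27.7 and 0.552 FPKM in Control, IL-4 and IL-6. Mmp13 was most like Slc36a2 (r = 0.9963), at 0.283, 12.8 and 0.289 FPKM. Mmp14 went closest with Marcksl1 (0.9977) and Lbp (0.9977), of which Marcksl1 had means of 50, 4.57 and 196 FPKM in the same order. For Mmp8 the nearest were Ppt1 (0.9976) and Pam (0.9970), and for Mmp27 Bank1 (0.9961). Mmp9 was most like Oplah (0.9913) and Mmp19 most like Clcf1 (0.9896). Among the inhibitors, Timp1 was most like Nupr1 (0.9768), which was at 3.62, 16.6 and 16.4 FPKM, Timp2 most like Bri3 (0.9911) and Timp3 most like Zfp36 (0.9906).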

How the data were processed

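RNA-seq of BM-derived Mϕs was compared between Control, IL-4- and IL-6-treated cells, with 3 libraries each. The authors deposited FPKM for 53379 genes. Their methods name a stranded poly(A) kit, GRCm38 as the genome, aligned with STAR 2.4.2a, and Cufflinks 2.2.1 with an earlier GENCODE release for the values. Identifiers matched GENCODE M21 with version for 94.8% of genes, and exon lengths of M21 turned 100% of 183346 values above 0 into whole fragments within 0.05, so libraries totalled 29988160 to 39909571 fragments. Such steps are those of counted fragments, which leaves the program behind the table unsettled. Intervals come from the limma fit, in which the spread of each gene is estimated from all 9 libraries and shared by the 3 comparisons. A floor of 3 fragments covers counting error only.

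FPKM were analyzed as log2(FPKM + 0.1), which understates changes of low genes. The 12824 genes with a mean of at least 0.5 FPKM over the 9 libraries entered a limma fit (3.58.1, R 4.3.3) of all 3 groups together, and eBayes was run with its trend and robust options, after a test on simulated data. All adjusted p-values are two-sided and Benjamini-Hochberg adjusted over all genes tested. Errors are SD over 3 libraries. Folds without a log2 are ratios of mean FPKM. Tables and plots used Python 3.11.15 with numpy 2.4.6, pandas 2.3.3 and matplotlib 3.10.9.

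Same-numbered libraries were read as one mouse from the table's headers and the stated 3 mice, which no label states outright. Their deviations from the group means had r of 0.521, −0.415 and 0.0777 for IL-4 and Control, 0.408, 0.201 and 0.166 for IL-6 and Control, and 0.281, −0.0612 and 0.153 for IL-6 and IL-4, so not every pair deviated together. Alternatives were other pseudocounts, filters, scalings and variance models, fits of 2 groups, the mouse as a block, an adjusted p alone, limma voom on recovered fragments (11356 genes) and leaving out each library. The set of libraries was first to be defined with Lyz1, which is above 1 FPKM in every library and so puts all in one set, and the definition without Lyz1 was chosen after seeing the data.

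All 10 genes are named, from each other list up to 4 genes that passed with the largest log2 fold changes, and the nearest genes by Pearson r of log2 levels. The 10 genes and the lists were chosen with earlier results of these data known. Promoters were found for 8 of the 10 in RefSeq (GRCm38.p6).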

Additional observations from a re-analysis of the deposited data

How the results depend on the processing

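Of the log2 fold changes of the 10 genes over all alternatives, 17 fell short of the threshold, 4 came to pass it and the rest stayed on their side of it. No gene past the threshold changed its direction. Among values that did not pass, 15 changed sign, in 5 combinations of a gene and a comparison. These were Mmp27 (0.29 under the set term, in which the set of libraries enters the fit) and Mmp9 for IL-6 against Control, Timp3 for IL-4 against Control, and Timp1 and Timp2 for IL-6 against IL-4. The set term moved the count of genes past the threshold from 8 to 5 for IL-4 against Control and from 4 to 2 for IL-6 against Control, the cause was not tested, and that fit rests on few libraries. Leaving out each library gave 8 to 8 genes for IL-4 against Control, 2 to 5 for IL-6 against Control and 7 to 8 for IL-6 against IL-4. The mouse number as a block gave 8, 4 and 8 genes and changed no call among the 10, while that fit lost the IL-6 calls of Mmp2 and Adam22. The median log2 fold change of all genes for IL-4 against Control was −0.20, and −0.01 after rescaling each library by its median ratio. The split of all calls, 644 higher and 1140 lower, became 834 and 874, and for IL-6 against IL-4 1738 and 875 became 1398 and 1165. Directions of the calls among the 10 genes were the same under this scaling. Over all genes the calls for IL-4 against Control were 1784, and 847 with a filter at 5 FPKM, 3186 by adjusted p alone and 1111 with the set term. For IL-6 against Control they were 690, and 306, 1077 and 187, and for IL-6 against IL-4 2613, and 1219, 4375 and 3274. Depth limits Timp1 (11 to 189 fragments) and Timp3 (23 to 737) most.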

Other observations

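Enzymes related to the MMPs and the matrix proteins they act on also differed between groups. Of 12 ADAM family genes, membrane proteases that shed surface proteins, 8 were tested. Against Control 5 passed the threshold with IL-4 (1 higher, 4 lower) and 2 with IL-6 (both lower), where 13.9% and 5.38% of all genes passed. Among them, Adam22 and Adam33 passed the filter only through their Control libraries, so for these genes the filter itself favored a lower value with either cytokine. Adam19 held 16.1, 9.56 and 10.3 FPKM in Control, 1.86, 1.91 and 0.419 in IL-4 and 13.9, 11.8 and 12.7 in IL-6 libraries, a log2 fold change of −3.21 with IL-4 (limma adjusted p = 0.00232). Its adjusted p under the set term was 0.0502. Adam33 was lower with both, by −2.27 with IL-4 (limma adjusted p = 0.000157) and −2.43 with IL-6 (limma adjusted p = 0.000354). Adam22 was lower with IL-4 (−2.52, limma adjusted p = 0.000593) and with IL-6 (−1.35, limma adjusted p = 0.0307), the latter lost with the mouse as a block (adjusted p = 0.0515), under the set term (0.285) and without any one Control or IL-6 library (0.0713 to 0.109). Adam17, the sheddase of TNF that Timp3 inhibits, was lower with IL-4 (−1.07, limma adjusted p = 0.0247), a call lost in 8 of the alternatives, among them the set term (−0.63, adjusted p = 0.338) and the fit without IL-4 #3 (−0.73, under the fold threshold). Adam8, named after its values were seen, was the one higher with IL-4 (1.55, limma adjusted p = 0.000426). Of 19 ADAMTS genes, secreted relatives that cut proteoglycans, 2 were tested, and Adamts1 was higher with IL-4 (2.64, limma adjusted p = 0.00749) at 2.82, 2.71 and 0.671 FPKM. With means of 0.199 FPKM in Control and 0.173 in IL-6, Adamts1 passed the filter only through its IL-4 libraries.

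Among 24 matrix substrates 5 were tested. With IL-6 all 5 were higher than Control, where 3.49% of all genes tested were called higher. Vcan and Col18a1 passed the filter only through their IL-6 libraries, so for these genes the filter itself favored a higher value with IL-6. With IL-4 2 passed, Fn1 higher and Spp1 lower, beside 13.9% of all genes. Vcan, the proteoglycan versican, was at 0.133, 0.0438 and 0.0828 FPKM in Control and at 7.59, 5.36 and 5.77 with IL-6 (log2 fold change 5.10, limma adjusted p = 6.59e-05). Spp1, osteopontin, which several MMPs cleave, was higher with IL-6 (1.90, limma adjusted p = 0.000777) and lower with IL-4 (−2.69, limma adjusted p = 4.02e-05). It measured 623, 776 and 840 FPKM in Control, 111, 142 and 96.7 in IL-4 and 3190, 2667 and 2473 in IL-6 libraries. Fn1, fibronectin, was at 1.25, 0.873 and 1.12 FPKM in Control, 207, 255 and 85.9 in IL-4 and 6.65, 6.65 and 8.37 in IL-6 libraries. Against Control it was higher by 7.14 on the log2 scale with IL-4 (limma adjusted p = 9.22e-06) and by 2.64 with IL-6 (limma adjusted p = 0.00411). Col18a1 was higher with IL-6 by 1.98 (limma adjusted p = 0.00302), and Lamc1, named after its values were seen, by 1.97 (limma adjusted p = 0.0349, lost without any one Control or IL-6 library at 0.0545 to 0.137). Under the set term the IL-6 calls of Spp1 (adjusted p = 0.0658), Fn1 (0.0815), Col18a1 (0.164) and Lamc1 (0.144) did not pass.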
